A study of Mus musculus with 8 samples.

Results

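Nodal is a secreted ligand of the TGF-beta family, and the genes described here are the 9 that carry its signal or answer to it and that were chosen by gene symbol: the ligands Nodal and Gdf3, the co-receptor Tdgf1 (Cripto), the receptor Acvr2b, the antagonists Lefty1 and Lefty2, the nuclear partner Foxh1 and the feedback inhibitors Smad7 and Skil. They were measured by 10 of the 41174 mouse probes on the array, 2 of them for Skil and 1 for every other gene, and all 9 genes were among the 25150 features tested. The RNA came from clonal mouse embryonic stem (ES) cell lines derived from IB10, a subclone of the E14 ES cell line, and grown with LIF on gelatin. Each line had been transduced with a pLKO-puro lentivirus expressing a short hairpin RNA, selected in puromycin, picked as a colony and expanded, so a line is 1 clone. The groups were Taf5-kd, with a knockdown of Taf5, a subunit of the general transcription factor TFIID, and control-kd, with a control knockdown, and both groups carry the virus and the selection marker. There were 2 lines per group and 2 separately grown cultures per line, each hybridised on a dual-colour array together with 1 RNA pool made from parental ES cells, which gave 4 arrays per group.

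Nodal binds a complex of type I and type II activin receptors together with an EGF-CFC co-receptor such as Cripto, and the receptors phosphorylate SMAD2 and SMAD3, which enter the nucleus with SMAD4 and act on DNA with partners such as FOXH1. The pathway regulates itself: Nodal and the Lefty genes are among its own targets, Lefty proteins block the ligand and the co-receptor outside the cell, and SMAD7 and SnoN, the product of Skil, block the signal inside it. Mouse ES cells make Nodal, Gdf3, Cripto and Lefty themselves, and in the embryo Nodal is needed for the epiblast, the primitive streak and the left-right axis.

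TFIID binds core promoters, so the sequence just upstream of the start site is shown for Nodal, which passed the test between the groups, and for its co-receptor gene Tdgf1, which did not. The RefSeq promoter table (GRCm38.p6) matched 3 of the 9 genes, the other being Acvr2b. Each sequence holds the 250 bases before the annotated start, 5′ to 3′ on the strand of the gene, and capitals mark CAGAC or its reverse complement, a motif bound by SMAD proteins.
Nodal, chr10:61417722-61417971, plus strand: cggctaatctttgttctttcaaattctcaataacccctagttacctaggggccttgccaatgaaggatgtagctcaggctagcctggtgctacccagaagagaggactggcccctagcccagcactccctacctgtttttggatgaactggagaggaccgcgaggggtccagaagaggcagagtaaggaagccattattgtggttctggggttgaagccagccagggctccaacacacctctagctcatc
Tdgf1, chr9:110946159-110946408, minus strand: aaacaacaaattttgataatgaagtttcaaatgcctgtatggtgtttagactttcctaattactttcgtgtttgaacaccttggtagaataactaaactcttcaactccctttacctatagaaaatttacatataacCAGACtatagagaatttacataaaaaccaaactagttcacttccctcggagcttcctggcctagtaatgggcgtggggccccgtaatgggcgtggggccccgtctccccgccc
The CAGAC motif was found 1 time in Tdgf1, from base -113 relative to the start, and in neither orientation in Nodal, and 42.2% of 32851 promoters hold it in the same window. TATAAA, the letters of the TATA box, on either strand was in neither sequence and in 12.4% of all promoters. The FOXH1 motif AATCCACA on either strand was also in neither and in 0.718% of all. Sequence outside this window was not searched. GC content was 53.2% upstream of Nodal and 42.0% upstream of Tdgf1.

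All values are log2 ratios of a line to the parental reference unless a difference between groups is named. They are given per array after background correction and loess normalization, with the effect of the dye removed. Between 90.9 and 98.7% of the mouse probes stood above background in the channel of the knockdown line, and all 10 member probes did so on all 8 arrays in both channels. Taf5 lay at 0.48 and 0.14 in control-kd lines 1 and 2 and at -1.08 and -1.11 in Taf5-kd lines 1 and 2, a difference of -1.40 ± 0.13 (SE; adjusted p = 0.0267). The groups were compared on 1 mean per line with limma's moderated test, 2 lines against 2, and a feature was called at a Benjamini-Hochberg adjusted p under 0.05 over all features. By this rule 7.75% of all features were called for Taf5-kd against control-kd, and 3.25% were called lower. The array measures bulk RNA, so fewer cells that express a gene and less of its RNA per cell cannot be told apart.

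Nodal RNA was lower in both Taf5-kd lines than in both control-kd lines. Its log2 ratio was -0.23 and -0.38 on the arrays of control-kd line 1, -0.05 and -0.03 on those of control-kd line 2, -1.02 and -0.98 in Taf5-kd line 1, and -0.96 and -0.88 in Taf5-kd line 2. The 4 Taf5-kd arrays lay well below the 4 control-kd arrays, with a gap larger than the spread within either group. The difference was -0.79 ± 0.11 (log2, SE; 95% interval -1.09 to -0.49), a 1.73-fold fall (adjusted p = 0.0400). Nodal was the 1 member of 9 called between the groups. Setting each Taf5-kd line against each control-kd line gave differences of -0.97 to -0.62, all 4 below 0. The call was lost without control-kd replicate 1 (-0.74, adjusted p = 0.0750), under median centring in place of loess (-0.90, adjusted p = 0.225), and without any 1 line (-0.93 to -0.66 over the 4 lines left out, adjusted p from 0.0715 to 0.149). The mouse Nodal gene lies on chromosome 10 from 61417972 to 61425338 (GRCm38.p6).

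Gdf3, a related ligand that also signals through Cripto and the activin receptors, was below the parental level on all arrays. The control-kd arrays read -0.64 and -0.55 in line 1 and -0.85 and -0.97 in line 2, and the Taf5-kd arrays read -1.33 and -1.37 in line 1 and -1.12 and -1.07 in line 2. The groups did not overlap, but control-kd line 2 and Taf5-kd line 2 were separated by 0.18, where the largest difference between 2 cultures of a line was 0.11. Taf5-kd minus control-kd was -0.47 ± 0.15 (SE; 95% interval -0.89 to -0.04), which did not pass (adjusted p = 0.160). Against the parental pool Gdf3 was called lower in both groups, at -0.75 ± 0.11 in control-kd (adjusted p = 0.0221) and -1.22 ± 0.11 in Taf5-kd (adjusted p = 0.0126). Gdf3 lies on chromosome 6 from 122605403 to 122610087.

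Tdgf1 codes for Cripto, the membrane-anchored co-receptor for Nodal. Its log2 ratio was -0.22 and -0.10 in control-kd line 1, -0.28 and -0.38 in control-kd line 2, -0.69 and -0.75 in Taf5-kd line 1, and -0.41 and -0.37 in Taf5-kd line 2. Taf5-kd line 1 stood apart below the other 3 lines, while Taf5-kd line 2 overlapped control-kd line 2. The group difference of -0.31 ± 0.14 (SE; 95% interval -0.69 to 0.08) did not pass (adjusted p = 0.271). Tdgf1 was called lower than the parental pool in Taf5-kd (-0.55 ± 0.10, adjusted p = 0.0369), and in control-kd it stood at -0.25 ± 0.10 (adjusted p = 0.169). Acvr2b, a type II activin receptor gene, lay between -0.29 and -0.06 on the control-kd arrays and between -0.22 and -0.002 on the Taf5-kd arrays, and the groups overlapped. Its difference was 0.11 ± 0.09 (SE; 95% interval -0.15 to 0.36; adjusted p = 0.543). The genes lie on chromosome 9, Tdgf1 from 110939608 to 110946158 and Acvr2b from 119401583 to 119442148.

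**Figure D1:**
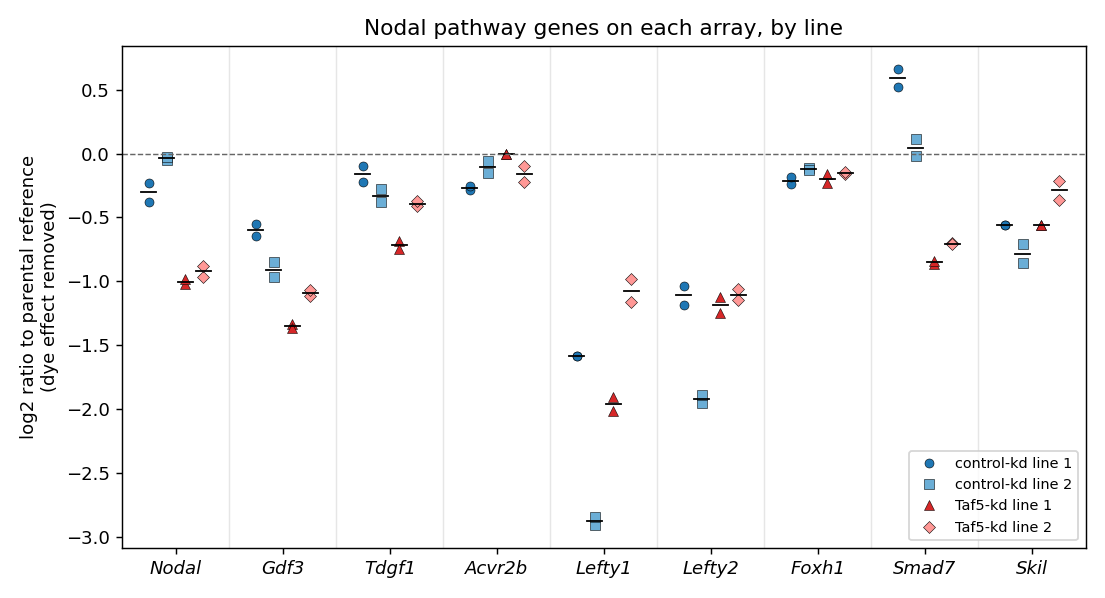
Log2 ratio to the parental reference (y axis, dye effect removed) of the 9 genes (x axis) on each of 8 arrays, with symbols for the 4 lines and a bar at each line's mean. Nodal, Gdf3 and Smad7 have the 4 Taf5-kd arrays below the 4 control-kd arrays, and Lefty1 is lowest in control-kd line 2, at -2.87.

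The Lefty genes, which code for secreted antagonists of Nodal, were the members furthest below the parental level in control-kd, and control-kd line 2 was the lowest line for both. Lefty1 read -1.59 on both arrays of control-kd line 1, -2.90 and -2.84 in control-kd line 2, -2.02 and -1.91 in Taf5-kd line 1, and -0.99 and -1.16 in Taf5-kd line 2. The highest and the lowest lines were thus Taf5-kd line 2 and control-kd line 2, with the other line of each group between them. In order of their means the lines ran from -2.87 in control-kd line 2 through -1.96 in Taf5-kd line 1 and -1.59 in control-kd line 1 to -1.07 in Taf5-kd line 2, and each step was larger than the largest difference between 2 cultures of a line, 0.18. The difference between the groups was 0.71 ± 0.56 (SE; 95% interval -0.88 to 2.30; adjusted p = 0.522). It ranged from -0.38 for Taf5-kd line 1 against control-kd line 1 to 1.80 for Taf5-kd line 2 against control-kd line 2. Without control-kd line 2 the group difference was 0.07, and without control-kd line 1 it was 1.36. Lefty1 was called lower than the parental pool in control-kd (-2.23 ± 0.40, 4.69-fold; adjusted p = 0.0343) and stood at -1.52 ± 0.40 in Taf5-kd (adjusted p = 0.0799).

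Lefty2 read -1.19 and -1.04 in control-kd line 1, -1.95 and -1.89 in control-kd line 2, -1.12 and -1.25 in Taf5-kd line 1, and -1.06 and -1.15 in Taf5-kd line 2. Control-kd line 2 was again the lowest, while the other 3 lines lay within 0.08 of each other, less than the spread between cultures. The group difference was 0.37 ± 0.30 (SE; 95% interval -0.46 to 1.202; adjusted p = 0.523). Against the parental pool Lefty2 was called lower in both groups, by 2.86-fold in control-kd (-1.51 ± 0.21, adjusted p = 0.0212) and by 2.21-fold in Taf5-kd (-1.14 ± 0.21, adjusted p = 0.0397). Without control-kd line 1 the group difference was 0.78, and without control-kd line 2 it was -0.03. Lefty2 and Lefty1 lie side by side on chromosome 1 (180893108 to 180899107 and 180935022 to 180938401), 35.9 kb apart. They are close paralogs, and since the probe sequences were not used here, signal shared between their probes cannot be told apart.

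Among the genes that act inside the cell, Foxh1, the DNA-binding partner of the SMAD complex, stayed within -0.24 and -0.11 on all 8 arrays. Its group difference was -0.01 ± 0.05 (SE; 95% interval -0.15 to 0.14; adjusted p = 0.949), the narrowest interval of the 9. Smad7, the inhibitory SMAD that is induced by the pathway it blocks, read 0.66 and 0.52 in control-kd line 1, -0.02 and 0.12 in control-kd line 2, -0.86 and -0.84 in Taf5-kd line 1, and -0.70 and -0.71 in Taf5-kd line 2. The groups were separated by more than the spread within the Taf5-kd group, and the control-kd lines differed from each other. Smad7 had the largest difference of the 9 genes, -1.10 ± 0.21 (SE; 95% interval -1.68 to -0.52; 2.14-fold), and missed the threshold at adjusted p = 0.0638. It was called under median centring (-1.22, adjusted p = 0.0443) and without control-kd replicate 3 (-1.14, adjusted p = 0.0485). Without control-kd line 1 the difference was -0.82, and without control-kd line 2 it was -1.37. Against the parental pool Smad7 was called lower in Taf5-kd (-0.78 ± 0.15, adjusted p = 0.0415) and stood at 0.32 ± 0.15 in control-kd (adjusted p = 0.221).

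Skil codes for SnoN, a corepressor of SMAD complexes that the pathway itself induces. Its brighter probe read -0.56 on both arrays of control-kd line 1, -0.86 and -0.71 in control-kd line 2, -0.56 on both arrays of Taf5-kd line 1, and -0.22 and -0.36 in Taf5-kd line 2. The 2 groups met at control-kd line 1 and Taf5-kd line 1, whose means were equal to 2 decimals. The difference was 0.25 ± 0.13 (SE; 95% interval -0.12 to 0.62; adjusted p = 0.344). The second probe of Skil gave line means of -0.32 to -0.08 and a difference of 0.09. Skil was called lower than the parental pool in control-kd (-0.67 ± 0.09, adjusted p = 0.0214) and stood at -0.42 ± 0.09 in Taf5-kd (adjusted p = 0.0563). Foxh1 lies on chromosome 15 (76667829 to 76671614), Smad7 on chromosome 18 (75367365 to 75395935) and Skil on chromosome 3 (31095058 to 31122923).

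**Figure D2:**
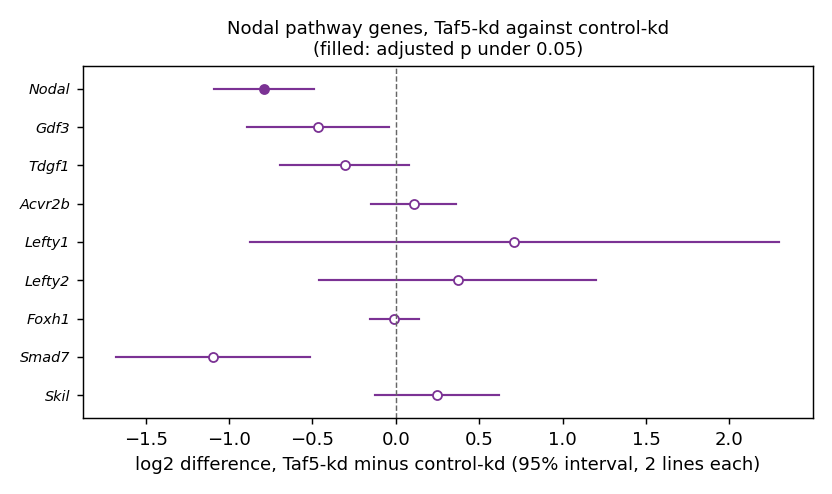
Log2 difference between Taf5-kd and control-kd lines (x axis) for each of the 9 genes, with an unadjusted 95% interval from 2 lines per group. The filled point, Nodal at -0.79, passed an adjusted p under 0.05, and the Lefty1 interval is the widest, from -0.88 to 2.30.

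Over the 9 genes the median difference between Taf5-kd and control-kd was -0.01, as it was over all features. With all arrays in the fit and the line as a random block, 3 of 9 were called, Nodal, Gdf3 and Smad7, where that rule called 22.6% of all features. The values of these 3 genes on the 4 Taf5-kd arrays did not overlap those on the 4 control-kd arrays, and the same held for 36.2% of all features. Against the parental pool more of the members were called, all of them lower. On all 8 arrays 8 of the 9 genes lay below the pool, Smad7 being the exception, compared with 16.0% of all features. In control-kd 4 of 9 were called lower (Gdf3, Lefty1, Lefty2 and Skil), beside 13.0% of all features, with a member median of -0.25. In either direction 5378 of 25150 features were called there. Under median centring in place of loess 3 of 9 were called in control-kd, Lefty1 and Lefty2 lower and Smad7 higher (0.58, adjusted p = 0.0396), while Nodal (0.07), Tdgf1 (0.08) and Foxh1 (0.15) turned to positive values that did not pass. In Taf5-kd 5 of 9 were called lower (Nodal, Gdf3, Tdgf1, Lefty2 and Smad7), beside 10.7% of all features, with a member median of -0.78. In either direction 4631 of 25150 features were called against the pool in Taf5-kd. Under median centring 2 of 9 were called lower in Taf5-kd, Gdf3 and Lefty2, beside 119 of 25150 features. Nodal (-0.82, adjusted p = 0.0918), Tdgf1 and Smad7 then lost the call. Some markers of cell types also differed from the pool in control-kd. By limma 0 of 6 primitive endoderm and 0 of 6 primitive streak markers were called (0 and 1 at an unadjusted p under 0.05). Fibroblast or feeder markers were called lower for 3 of 6, Col1a1 (-3.09), Col1a2 (-0.55) and Col3a1 (-0.32). Of the 4 neuroectoderm markers measured, 1 was called, Nes, lower at -1.15 (adjusted p = 0.00862), while the median of the 4 was 0.05. ES cell markers were called higher for 3 of 8, Esrrb (1.32), Nanog (0.84) and Sox2 (0.39), where 2108 of 25150 features were. With the line as a random block 7 of 8 were called higher, where that rule called 3520 of 25150 features higher. In Taf5-kd 2 of 8 ES cell markers were called lower than the pool, Dppa5a (-0.94) and Fgf4 (-0.67). By limma 0 of the fibroblast, primitive endoderm, primitive streak and neuroectoderm markers were called there. At an unadjusted p under 0.05 these lists had 3, 0, 1 and 1. The part of these markers in the members' values was not tested. Both groups share the 1 reference pool, whose own spread is not in these tests. In differences from the pool, transduction, selection and cloning of the lines cannot be told apart from the knockdown. Without either control-kd line, limma called 1 member against the pool in control-kd, and without either Taf5-kd line it called 2 there. Without Taf5-kd line 1 or line 2 it called 0 in Taf5-kd, with 4 and 8 members at an unadjusted p under 0.05. The single line left is assumed to vary like those of the other group.

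The 2 clones of a group differed from each other in several of these genes. Between the control-kd lines 5 of 9 were called, 4 of them higher in line 1 (6.66% of all features were called higher, and 13.4% in either direction). Lefty1 was higher in control-kd line 1 by 1.29 ± 0.07 (log2, SE; 2.44-fold; adjusted p = 1.76e-05), Lefty2 by 0.81 ± 0.07 (1.75-fold; adjusted p = 1.56e-04), Smad7 by 0.54 ± 0.07 (adjusted p = 9.34e-04) and Gdf3 by 0.31 ± 0.06 (adjusted p = 0.00817). Nodal went the other way, with -0.27 ± 0.06 (adjusted p = 0.0215). Between the Taf5-kd lines 4 of 9 were called, all lower in line 1 (4.06% of all features were called lower). In either direction 3408 of 25150 features were called between these lines. As line 1 minus line 2, Lefty1 stood at -0.89 ± 0.07 (log2, SE; adjusted p = 1.23e-04), Tdgf1 stood at -0.33 ± 0.06 (adjusted p = 0.00838), Skil at -0.27 ± 0.07 (adjusted p = 0.0286) and Gdf3 at -0.26 ± 0.06 (adjusted p = 0.0203). Lefty2 did not differ detectably between the Taf5-kd lines (-0.08 ± 0.07; 95% interval -0.24 to 0.08; adjusted p = 0.539), nor did Nodal (-0.08 ± 0.06; 95% interval -0.22 to 0.06; adjusted p = 0.466). These tests use the spread between 2 cultures of a clone. Without Taf5-kd replicate 1, 2, 3 or 4 the Taf5-kd count was 2, 1, 2 and 2 of 9. Without the dye term 1 of 9 was called between the Taf5-kd lines and 2 of 9 between the control-kd lines. Under median centring limma called 0 of 9 between the Taf5-kd lines (1 at an unadjusted p under 0.05) and 1 of 9 between the control-kd lines, where Smad7 stood at 0.07, Lefty2 at 0.42 (adjusted p = 0.134), Nodal at -0.74 and Gdf3, reversed, at -0.145 (adjusted p = 0.511). The call of Lefty1 between the control-kd lines was made in all 15 alternative settings run for it, and that between the Taf5-kd lines in 14 of 15, median centring being the exception.

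**Figure D3:**
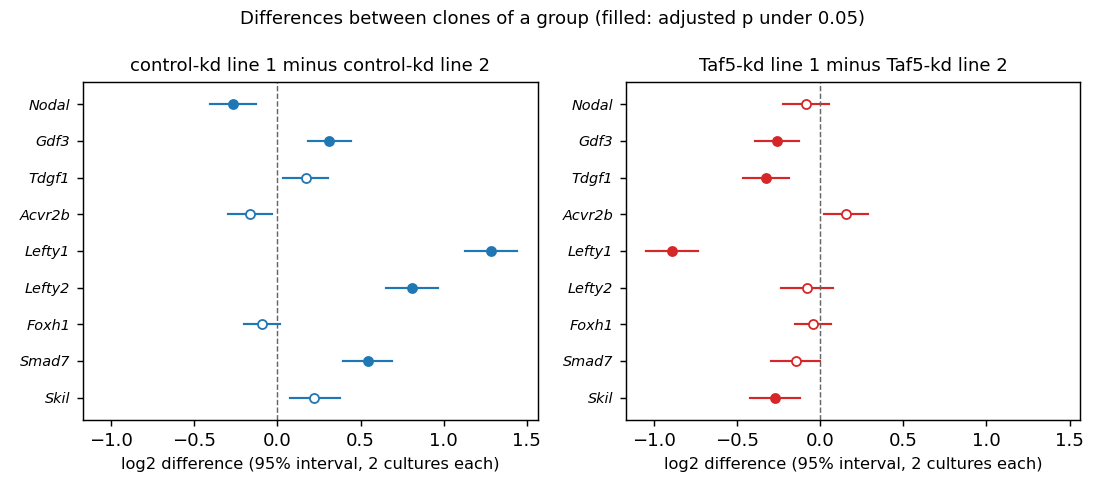
Log2 difference between line 1 and line 2 (x axis) for the 9 genes, in control-kd on the left and Taf5-kd on the right, with unadjusted 95% intervals from 2 cultures per line and filled points at an adjusted p under 0.05. Lefty1 lies furthest from 0 in both panels, at 1.29 and -0.89.

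Markers of other cell types differed between the same clones. All 8 ES cell markers examined (Pou5f1, Sox2, Nanog, Zfp42, Esrrb, Dppa5a, Fgf4 and Utf1) were above background on all 8 arrays. By line means, Esrrb (-1.56) and Fgf4 (-0.82) of these were called lower in Taf5-kd, beside 3.25% of all features. With the line as a random block 7 of 8 were, where that rule called 2559 of 25150 features lower. The summed normalized intensity of the list was 104000 to 122000 per array in control-kd and 66300 to 117000 in Taf5-kd. Primitive endoderm markers were all 6 above background on all arrays. Their sum was 2560 in control-kd line 2, against 1160 in control-kd line 1 and 998 and 971 in Taf5-kd lines 1 and 2. By limma 5 of the 6 were called lower in control-kd line 1 than in line 2, where 1700 of 25150 features were. Gata6 (-2.49) and Pdgfra (-2.10) were among the 5. In control-kd line 2 both Lefty genes and the brighter Skil probe were lowest, and Nodal and Foxh1 were highest. Primitive streak markers summed to 5330 in Taf5-kd line 1, where Nodal, Gdf3, Tdgf1 and Smad7 were lowest and Acvr2b was highest. They summed to 1110, 1050 and 849 in Taf5-kd line 2 and control-kd lines 1 and 2. Of these 6 markers 5 were above background on all arrays. By limma 5 were called higher in Taf5-kd line 1 than in line 2, where 2387 of 25150 features were. T was higher by 2.94 and Eomes by 0.82. Eomes, Gsc and Mixl1 of this list, and Foxa2 of the primitive endoderm list, are also targets in the wider list of pathway genes below. Fibroblast or feeder markers, 5 of 6 above background on all arrays, summed to 946 to 1710 in control-kd and 1260 to 2190 in Taf5-kd, with 0 of 6 called between the groups by limma (1 of 6 at an unadjusted p under 0.05, and 1 called with the line as a random block). Neuroectoderm markers, of which 4 of 5 were measured and all 4 were above background on all arrays, summed to 1230 to 1670 and 1580 to 2170. Of the 4, Nes alone was called between the groups (1.26, higher in Taf5-kd), and the median difference of the 4 was 0.12. The part of these cell types in the differences of the members was not tested.

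Beyond the 9 genes, a list of 40 genes of the Nodal, activin and TGF-beta pathway was drawn up, of which 38 were analysed here. Between the groups 4 were called (7.75% of all features were), and the median difference of the 38 was 0.12, against -0.01 over all features. The largest called difference was that of Pcsk6 on chromosome 7, which codes for PACE4, a convertase that cleaves the Nodal precursor. Its log2 ratio was 0.71 and 0.62 in control-kd line 1, 0.57 and 0.72 in control-kd line 2, -0.69 and -0.71 in Taf5-kd line 1, and -0.98 and -1.01 in Taf5-kd line 2. The Taf5-kd arrays were all far below the control-kd arrays. Pcsk6 fell by 1.50 ± 0.12 (log2, SE; 2.83-fold; adjusted p = 0.0243), its dimmer second probe gave -0.02, and the mean over both probes was -0.76 (adjusted p = 0.0226). Cfc1 (Cryptic), the second EGF-CFC co-receptor gene of the mouse, fell by 0.63 ± 0.06 (adjusted p = 0.0283), from -0.26 in control-kd to -0.89 in Taf5-kd.

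Called higher were Gdf1, a ligand that pairs with Nodal, and Smad3. Gdf1 rose by 0.60 ± 0.07 (log2, SE; adjusted p = 0.0307), from -0.96 in both control-kd lines to -0.43 and -0.28 in the Taf5-kd lines. It lies on chromosome 8, where the median difference over 565 brighter features was 0.33, and on chromosome 11 it was 0.27, while on the other autosomes it lay between -0.05 and 0.03. Smad3, one of the receptor-activated SMADs, rose by 0.36 ± 0.05 (adjusted p = 0.0372), its dimmer second probe gave 0.12, and the call was lost without control-kd replicate 1 (adjusted p = 0.0764) and without Taf5-kd replicate 3 (adjusted p = 0.0508). Of the 4, Pcsk6 alone was called under median centring, and without a whole line the calls were lost, except that of Pcsk6 without Taf5-kd line 2. The ligand gene Inhbb, chosen after its values were seen, had the largest difference of the list. Its brighter probe read 0.92 and 0.93, 0.73 and 0.67 in control-kd lines 1 and 2 and -1.69 and -1.64, -0.66 and -0.65 in Taf5-kd lines 1 and 2. All 4 Taf5-kd arrays were below all control-kd arrays, the difference was -1.97 ± 0.37 (SE; adjusted p = 0.0647), the dimmer probe gave -0.17, and the mean over both was -1.07 (adjusted p = 0.0709).

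**Figure D4:**
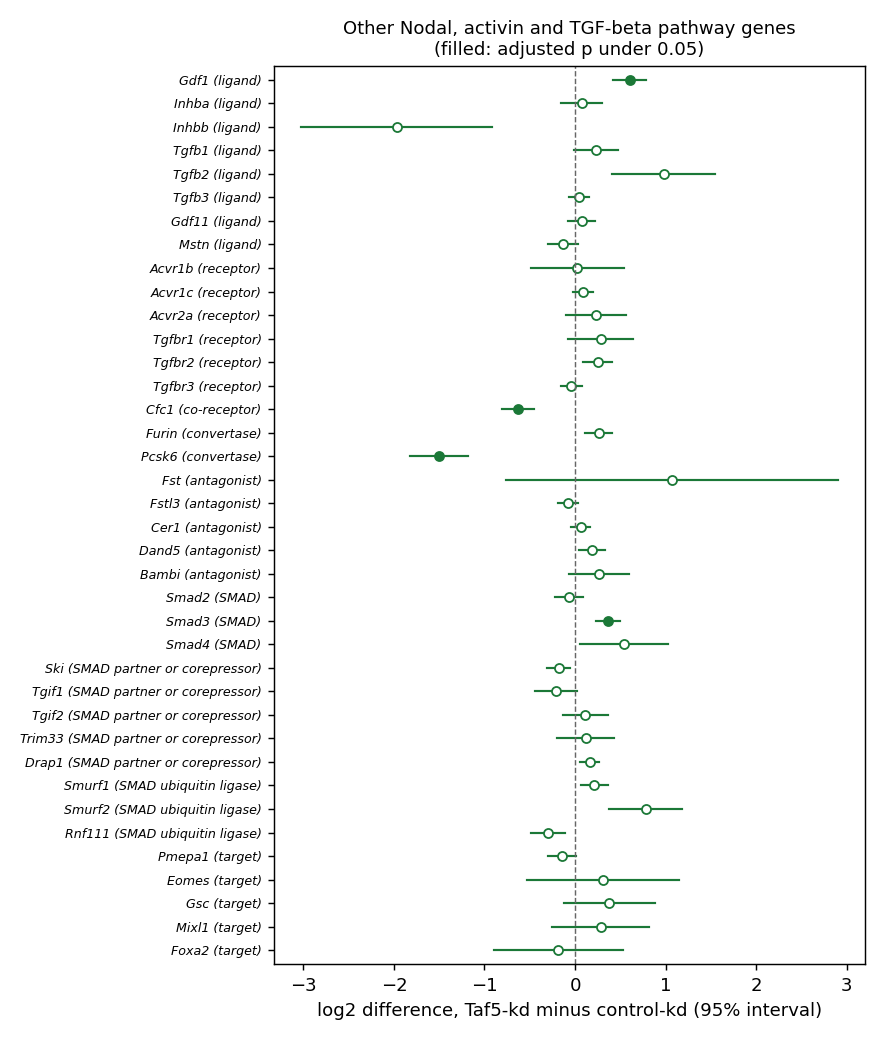
Log2 difference between Taf5-kd and control-kd lines (x axis) for the other 38 pathway genes analysed, ordered by role, with unadjusted 95% intervals from 2 lines per group. The filled points are the 4 called genes, Pcsk6 at -1.50, Cfc1 at -0.63, Smad3 at 0.36 and Gdf1 at 0.60.

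Where no gene of a role was called, those with the smallest p were as follows. Among the receptor genes Tgfbr2 stood at 0.25 ± 0.06 (SE; adjusted p = 0.0860) and Tgfbr1 at 0.28 ± 0.13 (adjusted p = 0.275). The antagonist gene Dand5, like Gdf1 on chromosome 8 with its median difference of 0.33, stood at 0.18 ± 0.05 (adjusted p = 0.126). Bambi, a pseudoreceptor gene, stood at 0.26 ± 0.12 (adjusted p = 0.264). Of the corepressors, Drap1, which restrains Foxh1 in the mouse embryo, stood at 0.16 ± 0.04 (adjusted p = 0.0896) and Ski at -0.18 ± 0.04 (adjusted p = 0.101). Smurf2, a ubiquitin ligase gene for SMADs and receptors on chromosome 11, stood at 0.78 ± 0.14 (adjusted p = 0.0606) and Rnf111 at -0.30 ± 0.07 (adjusted p = 0.0849). Of the pathway targets, Pmepa1 stood at -0.15 ± 0.05 (adjusted p = 0.199) and Gsc at 0.38 ± 0.18 (adjusted p = 0.295). Fst, which codes for the activin-binding protein follistatin and was also chosen after its values were seen, was 1.80 ± 0.16 higher in Taf5-kd line 1 than in Taf5-kd line 2 (adjusted p = 2.13e-04). With the line as a random block 14 of the 38 were called, 9 higher and 5 lower (22.6% of all features by that rule). Without Taf5-kd replicate 4 the count with line means was 9, and without control-kd replicate 2 it was 6.

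The genes whose pattern over the 8 arrays was most like that of the 4 named members were found by Pearson's correlation across arrays, with the dye effect removed, as a description over 8 arrays of 4 lines. For Nodal these were Arnt, Zc3h12a and Sgk2, all at 0.998, out of 3615 candidates. Zc3h12a lay at 0.76 and 1.21 in control-kd and at -0.23 and -0.19 in Taf5-kd, so that, unlike Nodal, it was above the parental level in the control-kd lines. Arnt (0.42 and 0.62) and Sgk2 (0.38 and 0.55) were above that level in the control-kd lines too. The nearest to Lefty1 were Acsl1 (0.978), Oaf (0.928) and Map4k4 (0.924), and to Lefty2 Map4k4 (0.995), Tex2 (0.987) and Gkap1 (0.987). Map4k4, on both lists, stood at -0.88 in control-kd line 2 and between -0.18 and -0.03 in the other 3 lines. The nearest to Tdgf1 were Hspd1 (0.980), Akr1b8 (0.979) and Ruvbl2 (0.974).

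In the authors' deposited table, Nodal and Smad7 are the members listed with a p-value of 0 for Taf5-kd against control-kd, with log2 differences of -0.81 and -1.16. For that comparison 10.3% of all probes are listed with a p-value of 0.05 or less. The authors' deposited table gives Gdf3 a difference of -0.50 (p-value 0.59) and Tdgf1 one of -0.38 (0.9996), and it lists a p-value of 1 for Lefty1, Lefty2, Foxh1, Acvr2b and both Skil probes. For single lines, Lefty1 has -0.45 for Taf5-kd line 1 over control-kd line 1 and 1.86 for Taf5-kd line 2 over control-kd line 2 in the authors' deposited table. For Smad7 all 4 pairings of lines are below 0 in the authors' deposited table, from -1.54 to -0.78. For Nodal all 4 are too, from -1.01 to -0.61. The weakest of these, Taf5-kd line 2 over control-kd line 1, is listed in the authors' deposited table with a p-value of 0.2848.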

How the data were processed

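Dual-colour oligonucleotide arrays were used. The scanner tables hold, per the file headers, mean spot intensity and local background for both channels. Log2 ratios of sample over reference make up the authors' value matrix (array medians -0.0058 to 0.00799), and the authors' deposited comparison table gives log2 differences with a p-value, which is 1 for 80.4% of probes in Taf5-kd against control-kd. How these were normalized and tested is not stated in the labels. Channel and direction come from the dyes in the labels. Of the platform symbols, 30365 were current and 3726 were updated through RefSeq GRCm38.p6.

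The intensities were processed in R 4.3.3 using limma 3.58.1 and statmod 1.5.0 (normexp with offset 50, then loess over mouse probes). A probe was kept when it exceeded background by 2 background SDs, in sample or reference, on 4 or more arrays (40860 of 41174 were), and the brightest probe represented a gene. Groups were compared on line means, each of which holds 1 array of each dye. Clones were compared on arrays with a dye term. Deviations from the line means, with the dye effect still in them, correlated at 0.700 to 0.829 between like-numbered arrays of different lines. A dye effect alone can give such a correlation, so it cannot show that the numbers in the titles pair the arrays. Each number goes with 1 dye orientation, so the dye and any shared culture or hybridisation set cannot be told apart. P-values measure the spread between 2 clones per group or, between clones, between 2 cultures. Plots used matplotlib 3.10.9 in Python 3.11.15. The procedure was tested on simulated data.

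The members and lists were chosen with earlier results of these data known. Genes named are all members, the called other pathway genes, up to 2 with the smallest p per role where none was called, and the 3 nearest patterns of Nodal, Lefty1, Lefty2 and Tdgf1 among features with a gene symbol and an SD of at least 0.5 times that of the gene. Genes said to be chosen after their values were seen, and marker examples, fall outside this rule. Some listed genes are not reported here.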

Additional observations from a re-analysis of the deposited data

Results flagged for a closer look

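The 2 lines of a group, set against the same reference, differed in 9 tests of a member gene, each a limma test of line 1 minus line 2 at an adjusted p under 0.05. Between the control-kd lines these were Lefty1 (1.29), Lefty2 (0.81), Smad7 (0.54), Gdf3 (0.31) and Nodal (-0.27), on the log2 scale. Between the Taf5-kd lines they were Lefty1 (-0.89), Tdgf1 (-0.33), Skil (-0.27) and Gdf3 (-0.26). Over all features 3375 of 25150 were called between the control-kd lines and 3408 between the Taf5-kd lines. For Lefty1 and Gdf3 both pairs of clones differed. Under median centring the Gdf3 difference between the control-kd lines was -0.145, and 0 members were called between the Taf5-kd lines.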

How the results depend on the processing

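Nodal was lower in Taf5-kd than in control-kd in all 19 alternatives run for it, from -0.925 to -0.658 on the log2 scale, and was called in 13. With all arrays fitted, the array number (dye) as replicate block and the line as a random block, 5673 features, 3 members and 14 other pathway genes were called between the groups, 8243 features and 7 members for control-kd against the parental pool, and 7853 and 8 for Taf5-kd. Without the replicate block, the clone comparisons called 923 features and 1 member in Taf5-kd and 936 and 2 in control-kd. Under median centring 106 features and 1 other pathway gene were called between the groups, 1171 features and 3 members (1 higher, 2 lower) for control-kd and 148 features and 2 members for Taf5-kd against the pool, 94 features and 0 members between the Taf5-kd lines (1 member at an unadjusted p under 0.05 in limma) and 322 and 1 between the control-kd lines. There the Gdf3 difference between the control-kd lines turned from 0.31 to -0.145 (adjusted p = 0.511), and the cause was not tested.

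Leaving out a whole line leaves 1 line in its group, which is then assumed to vary like the other group. Without control-kd line 1, control-kd line 2 or Taf5-kd line 1, limma called 0 features, 0 members and 0 other pathway genes between the groups (5657, 5314 and 4974 features at an unadjusted p under 0.05). Without Taf5-kd line 2 it called 110 features, 0 members (4 at an unadjusted p under 0.05) and 2 other pathway genes. Against the pool, control-kd had 1175 features and 1 member without its line 1, 1082 and 1 without its line 2, and 2 members without either Taf5-kd line, while Taf5-kd had 0 features and 0 members without either of its lines (6143 and 6380 features at an unadjusted p under 0.05).

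Leaving out 1 array at a time gave 1407 to 2520 features, 0 to 2 members and 3 to 9 other pathway genes between the groups. Against the pool it gave 3910 to 4640 features and 4 to 7 members in Taf5-kd, and 4477 to 5611 and 4 to 5 in control-kd. Between clones it gave 1291 to 3997 features and 1 to 4 members in Taf5-kd, and 1443 to 3263 and 4 to 6 in control-kd. The 0 members arose without control-kd replicate 1, with 3 at an unadjusted p under 0.05 in limma. The number of arrays and of clones limits the precision of every value.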
